A study of Mus musculus with 6 samples.

Results

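The sirtuin family of mouse, Sirt1 to Sirt7, was measured by 12 of the 61307 probes of the array, under 7 of its 50090 gene names. The members were all probes, other than controls, that carried the name Sirt1, Sirt2, Sirt3, Sirt4, Sirt5, Sirt6 or Sirt7, and no measured value entered that choice. Sirt2 had 3 probes, Sirt1, Sirt6 and Sirt7 had 2 each, and Sirt3, Sirt4 and Sirt5 had 1 each. The transcript accession of 11 of the 12 probes was found in a RefSeq table of the GRCm38.p6 assembly under the same symbol, and that of the Sirt4 probe was not matched.

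The study placed GFP alone, or SIRT7 fused to GFP, in NIH3T3 cells, a line of mouse embryo fibroblasts, by retroviral transduction, and the labels give this line for all 6 samples. GFP is the control that received the tag without SIRT7. LT7 are the long cells and ST7 the small cells that overexpress SIRT7, and the labels give both phenotypes beside the overexpression. Each of the groups was grown from single-cell clones, so a group stands for a cloned line and not for the whole transduced population. Total RNA of 2 replicates per group, taken from different passages, was hybridized to 6 one-colour arrays. A p-value here measures the spread between passages of a clone, pooled over all groups. The spread of ST7 values at background therefore also enters the comparison of LT7 with GFP.

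Sirtuins are enzymes that remove acetyl and other acyl groups from lysines of proteins and consume NAD in doing so. Sirt1, Sirt6 and Sirt7 act mainly in the nucleus, and Sirt7 is concentrated in the nucleolus, where it is known for promoting transcription of ribosomal RNA genes by RNA polymerase I. Sirt2 is mainly cytoplasmic and deacetylates tubulin among other proteins, while Sirt3, Sirt4 and Sirt5 are mitochondrial.

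Each probe was an oligonucleotide of 60 bases, of which 30 are shown here, 5′ to 3′ as the scanner files list them, with the positions counted from the 5′ end of the probe. The sequences of Sirt7 and Sirt2 are shown because some of their probes overlap, so that these are not independent measurements of the gene. Capitals mark bases shared with another probe of the same gene. The Sirt7 probes P352264 (bases 1 to 30) and P138727 (bases 31 to 60) had 40 of their 60 bases in common.
Sirt7 P352264: GTACAAGTGTTCACTTTATAGAAGCCTTTT
Sirt7 P138727: TCACTTTATAGAAGCCTTTTTCTGTATTGG
Of the Sirt2 probes, P547447 (bases 31 to 60) and P110068 (bases 1 to 30) shared 23 bases, and P656024 (bases 1 to 30) overlapped neither of them.
Sirt2 P547447: agtgccaGAATAAGGCATTTCTCTATTGTT
Sirt2 P110068: GAATAAGGCATTTCTCTATTGTTttgaggg
Sirt2 P656024: cacggctgctcattaacaaggaaaagacag
The Sirt6 probes are shown because they kept a signal well above background on arrays labelled ST7, as P656024 did. They did not overlap. In GT_Mm_44k_01331 (bases 18 to 47) the capitals mark the hexamer AATAAA, the canonical polyadenylation signal, which stood on the listed strand of 5.94% of all probes and on the other strand of 3.69%. P416215 is shown from base 1 to base 30.
Sirt6 GT_Mm_44k_01331: agctcccaatgcAATAAAtacaaaatccct
Sirt6 P416215: actcatgaagcatctggggctggagattcc
All 12 probes were listed as unmapped, and no position in the genome or within a transcript was used. Whether the cDNA of the SIRT7GFP construct holds the bases of the Sirt7 probes was not tested.

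Values are given first as the processed signal, the background-subtracted brightness of a probe, and then as log2 differences after the 75th percentile of each array had been subtracted. A probe is called well above background where the scanner software marked it so. Over all probes 47.4% to 57.5% were well above background on the GFP and LT7 arrays, against 25.5% and 26.4% on the arrays labelled ST7. The 75th percentile of the signal was 317 to 384 on the GFP and LT7 arrays and 16.3 and 17.1 on those labelled ST7. The median log2 difference of all probes between ST7 and GFP was therefore 3.72 after the shift and -0.68 before it, and a difference in ST7 below is relative to a percentile near the background. Of 10 fibroblast markers, all 10 were well above background on both GFP and both LT7 arrays and 5 on both arrays labelled ST7, with Col3a1, Fn1, Pdgfrb, Thy1 and Twist1 on neither. The summed signal of this list was 329864 to 338435 over the GFP and LT7 arrays and 15090 to 16626 on those labelled ST7. Vim alone gave 14612 and 16192 of the ST7 sums. Col1a1, Col1a2 and S100a4 were marked as saturated in GFP and LT7, so their signals there are lower limits. Of 10 epithelial markers, 2, 1 and 4 were well above background on both arrays of GFP, LT7 and ST7, with a summed signal of 120 to 202, 147 to 187 and 2033 to 2221, and Cdh1 was on none of the 6 arrays. Krt18, a keratin, gave 1881 and 1755 of the ST7 sums, which were 278 to 340 without it, against 116 to 196 in GFP and 122 to 167 in LT7. Krt8, its partner keratin, read 123 and 62.2 in GFP, 108 and 38.3 in LT7, with 15.3 and 5.82 on the arrays labelled ST7. Epcam read 5.38 and 3.03 in GFP, 4.42 and 4.69 in LT7, with 86.7 and 94.0 on those labelled ST7. Dsp read 3.40 and 3.26 in GFP, 4.95 and 5.17 in LT7, with 178 and 104 on those labelled ST7. Of the 10 epithelial markers, 5 were well above background on no array labelled ST7. Of 4 myeloid markers, 2, 2 and 0 were well above background on both arrays of GFP, LT7 and ST7, with a summed signal of 185 to 251, 278 to 358 and 14.8 to 18.2, and Ptprc was on none of the 6 arrays. The source of the RNA on the arrays labelled ST7, its cell line and species included, was not tested beyond these markers, and ST7 is used below as the label of those arrays. The part of cell type, RNA amount or labelling in the sirtuin values was not tested either, and in bulk RNA a lower share of cells of a type and less RNA per cell cannot be told apart.

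**Figure D1:**
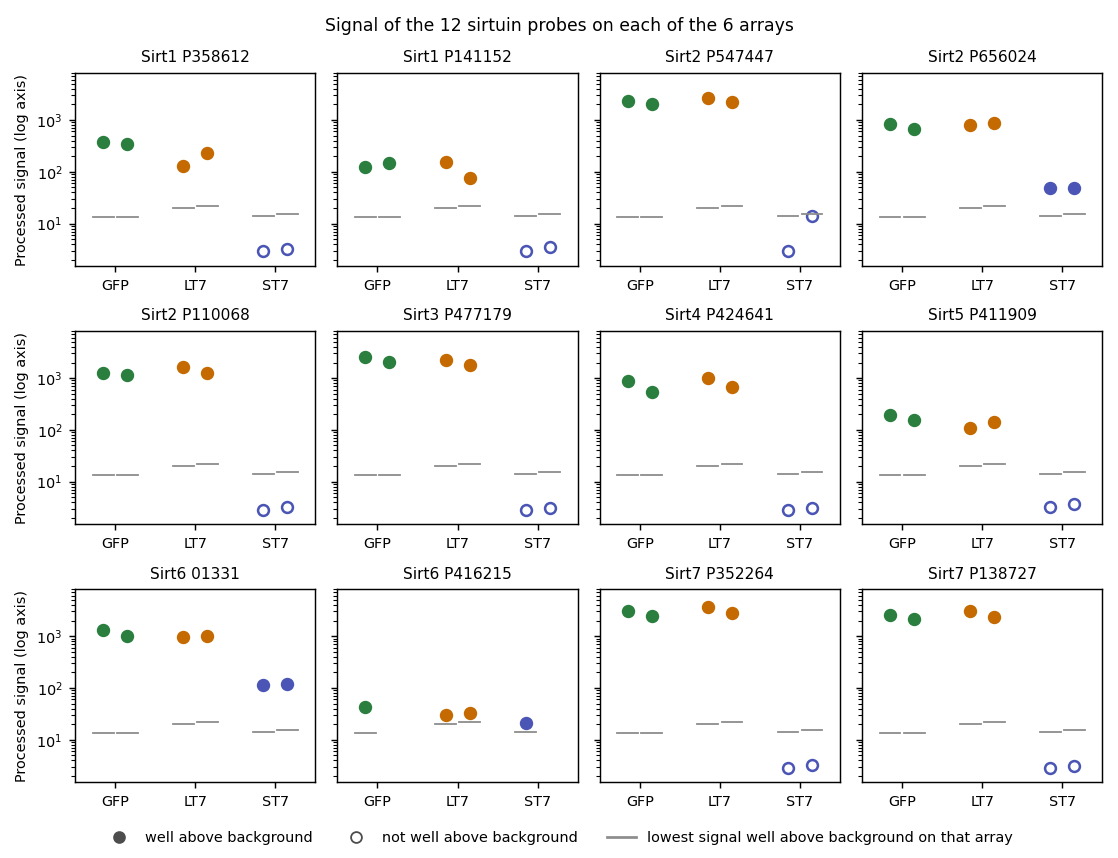
Processed signal (log axis) of each of the 12 sirtuin probes on the 2 arrays of GFP, LT7 and ST7, 1 panel a probe; filled points are well above background and open points are not, and the grey lines mark the dimmest signal well above background on each array. Every point of GFP and LT7 is filled, while on the arrays labelled ST7 points are filled for 3 probes only, Sirt2 P656024 and both of Sirt6, of which P416215 has a usable spot on 1 GFP and 1 ST7 array.

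Sirt7 is the gene that LT7 and ST7 were made to overexpress. Its probes check the labels only if the construct holds their bases, which was not tested, and otherwise they read the cells' own Sirt7 transcript alone. On P352264 the GFP arrays, replicates 1 and 2, read 3125 and 2480, the LT7 arrays 3633 and 2782, and the arrays labelled ST7 2.85 and 3.28. On P138727 the signals were 2594 and 2142 in GFP, 3092 and 2341 in LT7, with 2.86 and 3.15 on those labelled ST7. GFP and LT7 overlapped on both probes, and ST7 lay below every other array and was not well above background on either of its own. After the shift LT7 was higher than GFP by 0.29 on the log2 scale on each probe (SE 0.21 and 0.21, limma adjusted p = 0.47 and 0.47), a ratio of 1.22 with 95% intervals from 0.844 to 1.77 and from 0.847 to 1.76. Both LT7 values then lay above both GFP values, an order that the signals before scaling did not have. With scaling on spike-in RNAs the same differences were -1.88 and -1.88. The Sirt7 signal of the arrays labelled ST7 lay below that of GFP, against the direction of the label if the probes can read the construct, and its log2 difference from GFP was -5.43 on P352264 and -5.22 on P138727 (SE 0.21 and 0.21, limma adjusted p = 1.7e-05 for both). Against the background floor of those arrays this was at least 8.96-fold and 7.59-fold lower than GFP after the shift, and at least 189-fold and 160-fold lower before any scaling. The floor, 13.9 and 15.5, is the dimmest signal that was still well above background on each array labelled ST7.

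Sirt1, a nuclear deacetylase of histones and of transcription factors such as p53, was the member with the lowest log2 difference in LT7. On P358612 the signal was 384 and 341 in GFP, 129 and 227 in LT7, with 2.93 and 3.25 on the arrays labelled ST7. Both LT7 values lay below both GFP values, before scaling and after it. The log2 difference of LT7 from GFP was -0.99 (SE 0.34, 95% interval -1.85 to -0.12), with an unadjusted p of 0.033 and a limma adjusted p of 0.14, so it missed the threshold. The LT7 replicates differed from each other by 0.92 on the log2 scale, and the difference from GFP was -0.53 without LT7 replicate 1 and -1.45 without LT7 replicate 2, with adjusted p of 0.30 and 0.082 (limma). The other probe, P141152, did not repeat the order. It read 122 and 145 in GFP, 152 and 77.1 in LT7, with 2.98 and 3.46 on those labelled ST7, so LT7 spanned GFP and the log2 difference was -0.20 (SE 0.37, 95% interval -1.13 to 0.74, limma adjusted p = 0.81).
On the arrays labelled ST7 neither Sirt1 probe was well above background. P358612 differed from GFP by -2.48 (SE 0.34, limma adjusted p = 0.00098), and was at least 1.16-fold lower after the shift and at least 24.6-fold before scaling. P141152 differed by -0.97 (SE 0.37, limma adjusted p = 0.049), but by 0.77 with normexp background correction, and after the shift its GFP level was under the floor of ST7, so no fold is given. Its call was lost when either GFP or either ST7 array was left out, with adjusted p between 0.065 and 0.20 by limma. Before scaling it was at least 9.03-fold lower.

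Sirt6, a nuclear deacylase that acts on histone H3, was the only member with a signal well above background on both arrays labelled ST7 on its brightest probe. That probe, GT_Mm_44k_01331, read 1330 and 1022 in GFP, 952 and 1005 in LT7, with 115 and 121 on those labelled ST7. LT7 was below GFP by a log2 difference of -0.16 (SE 0.20, 95% interval -0.66 to 0.35, limma adjusted p = 0.71). ST7 was higher than GFP by 1.10 after the shift (SE 0.20, limma adjusted p = 0.0030, 2.14-fold), but differed by -0.84 with the percentile limited to probes detected on every array, that is, well above background on all 6, -3.13 with spike-in scaling, -3.30 without scaling and -0.37 with normexp background correction. In signal it was 9.87-fold lower in ST7.
The other Sirt6 probe, P416215, was dim throughout, and its spots on GFP replicate 2 and ST7 replicate 2 were marked as outliers and left out. It read 43.3 on the remaining GFP array, 30.7 and 32.4 in LT7, with 21.5 on the remaining array labelled ST7. LT7 differed from GFP by -0.24 (SE 0.30, limma adjusted p = 0.72). ST7 differed from GFP by 3.55 after the shift (SE 0.35, limma adjusted p = 0.0020), by -0.92 with spike-in scaling and by -1.01 without scaling, so the direction turned here as well. These values set 1 array against 1. With the outlier spots kept the difference after the shift was 4.39 and no longer passed (limma adjusted p = 0.059).

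Sirt2, the mainly cytoplasmic tubulin deacetylase, had a probe that departed from the others in ST7. P547447 read 2328 and 1993 in GFP, 2716 and 2262 in LT7, with 2.90 and 14.1 on the arrays labelled ST7. P110068, which shares bases with it, read 1241 and 1127 in GFP, 1675 and 1264 in LT7, with 2.80 and 3.19 on those labelled ST7. P656024 read 826 and 685 in GFP, 815 and 891 in LT7, with 49.1 and 48.8 on those labelled ST7. On the overlapping probes ST7 was not well above background, and on P656024 it was, on both arrays. In the order P547447, P110068 and P656024, LT7 differed from GFP by 0.30, 0.40 and 0.28 (SE 0.71, 0.21 and 0.20), and none passed (limma adjusted p = 0.85, 0.32 and 0.47). The replicates of P547447 differed by 0.02 in GFP, 0.16 in LT7 and 2.21 in ST7 on the log2 scale. This ST7 gap, at background, entered its SE. With only GFP and LT7 in the fit its adjusted p was 0.53 (limma). On P110068 LT7 lay above GFP before scaling too, and on the other probes of Sirt2 the signals overlapped.
In ST7 the log2 difference from GFP was -4.00 on P547447 and -4.23 on P110068 (SE 0.71 and 0.21, limma adjusted p = 0.0028 and 1.8e-05). This was at least 6.93-fold and 3.81-fold lower after the shift and at least 146-fold and 80.3-fold lower before scaling. On P656024 the difference after the shift was 0.46 (SE 0.20, 95% interval -0.05 to 0.97, limma adjusted p = 0.076), while before scaling its signal was 15.4-fold lower in ST7 with no overlap. Its direction turned with the scaling, to -1.48 with the percentile of probes detected on every array and -3.77 with spike-in scaling. The Sirt2 probes therefore gave unequal differences within the arrays labelled ST7.

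None of the mitochondrial sirtuins was called between GFP and LT7, and none was well above background in ST7. Sirt3, the main mitochondrial deacetylase, read 2589 and 2086 in GFP, 2212 and 1752 in LT7, with 2.79 and 3.10 on the arrays labelled ST7. Sirt4, known for its action on glutamate dehydrogenase, read 864 and 534 in GFP, 1024 and 665 in LT7, with 2.79 and 3.14 on those labelled ST7. Sirt5, which removes succinyl and malonyl groups, read 197 and 154 in GFP, 111 and 141 in LT7, with 3.21 and 3.65 on those labelled ST7. Signals of GFP and LT7 overlapped for Sirt3 and Sirt4, and for Sirt5 both LT7 values were below both GFP values. The log2 difference of LT7 from GFP was -0.14 for Sirt3, 0.38 for Sirt4 and -0.38 for Sirt5 (SE 0.20, 0.28 and 0.24), and none passed (limma adjusted p = 0.74, 0.49 and 0.40). In ST7 the difference from GFP was -5.23 for Sirt3, -3.44 for Sirt4 and -1.27 for Sirt5 (limma adjusted p = 1.7e-05, 0.00011 and 0.0036), and for Sirt5 0.46 with normexp background correction. Sirt3 was at least 7.48-fold and Sirt4 at least 2.19-fold lower after the shift, and no fold is given for Sirt5, whose GFP level after the shift was under the floor of ST7. Before scaling they were at least 158-fold, 46.1-fold and 11.8-fold lower.

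Over the family, no member was called in LT7. Of the 12 probes, 0 passed an adjusted p under 0.05 (limma) where 0.176% of all 61307 probes did (0.0440% higher and 0.132% lower), and 1, Sirt1 P358612, had an unadjusted p under 0.05, as 27.2% of all probes did. Among probes well above background on both GFP arrays, 9.38% had such an unadjusted p. By the study's rule on fold change, applied here as a log2 ratio of 0.8 on each array and a mean over 1 in the same direction, 0 of the 11 probes with a value on all arrays of both groups were called, against 5.91% of all probes (2.89% higher and 3.02% lower). The differences were above 0 on 6 probes and below 0 on 6, with a median of 0.07 against 0.17 over all probes. Among probes well above background on both GFP arrays the median was -0.03. After the shift LT7 lay above GFP on 5 probes, below on 3 and overlapped it on 4, where over all probes the groups did not overlap on 53.0%. Before scaling LT7 lay above GFP on 1, below on 4 and overlapped on 7, where 54.0% of all probes did not overlap. Of all probes 33.2% then lay above and 20.8% below. The shares were 12.1% and 31.2% among probes well above background on both GFP arrays. With scaling on spike-in RNAs all 12 differences were negative. The spike-in signal of LT7 replicate 1, which was scanned apart from the other arrays, was 18.0-fold above the mean of the others, and with this scaling the 12 probes were -5.60 to -3.52 from the GFP mean on that array and -0.82 to 0.21 from it on LT7 replicate 2. With only GFP and LT7 in the fit, which leaves out the arrays labelled ST7, the number of calls was also 0.

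**Figure D2:**
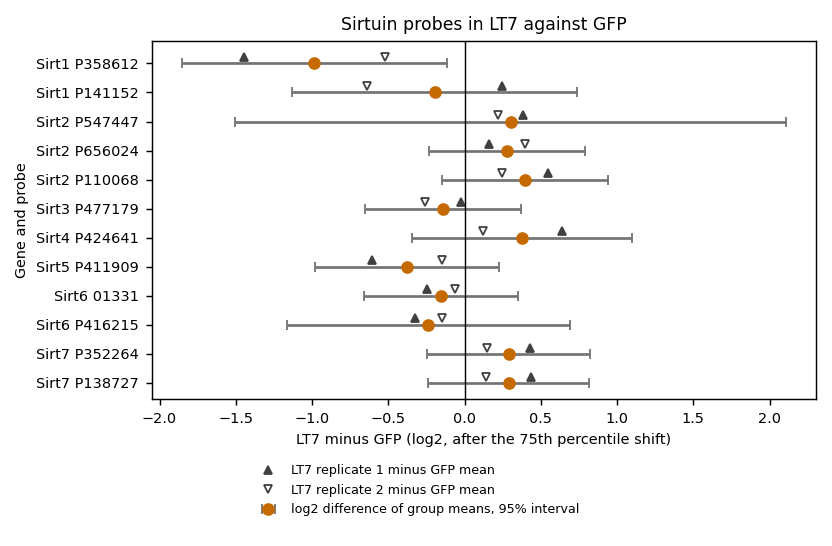
Log2 difference of LT7 from GFP after the 75th percentile shift for each sirtuin probe, with its 95% interval from limma on 6 arrays (GFP and LT7 each n = 2, but GFP n = 1 for Sirt6 P416215), and the value of each LT7 array minus the GFP mean as triangles. The interval excludes 0 only for Sirt1 P358612 (-1.85 to -0.12), which did not pass after adjustment, and the triangles of Sirt1 P141152 lie on either side of 0.

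On the arrays labelled ST7 the signal of all 12 probes was lower than on every GFP and LT7 array, and 9 of the 12 were well above background on neither array. Among all probes well above background on both GFP arrays, the signal on both arrays labelled ST7 was below both GFP values for 83.8%. After the shift 11 of the 12 passed an adjusted p under 0.05 (limma) against GFP, where 90.6% of all probes did, so the share called was near that of the array. Of these, 9 were lower, where 19.8% of all probes were called lower, and 2, the Sirt6 probes, were higher, a direction that turned without scaling and with spike-in scaling, where 70.7% of all probes were called higher. The call of Sirt6 P416215 among these set 1 GFP array against 1 labelled ST7, with its spread taken from the LT7 pair, and was lost with outlier spots kept. By the rule on fold change 8 of 11 were lower and 1 higher, against 90.0% of all probes called, 19.1% lower and 70.9% higher. The median difference of the 12 probes was -2.96, against 3.72 over all probes. Among the probes well above background on both GFP arrays, the median difference was 0.52 and 53.0% were on no array labelled ST7. Of 33295 probes well above background on both arrays of any group, 12161 were called lower and 15698 higher (limma). The bounds that the 9 probes gave before scaling ran from at least 9.03-fold to at least 189-fold, and with spike-in scaling from at least 8.04-fold to at least 168-fold. The plot by scaling sets these alternatives beside each other.

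**Figure D3:**
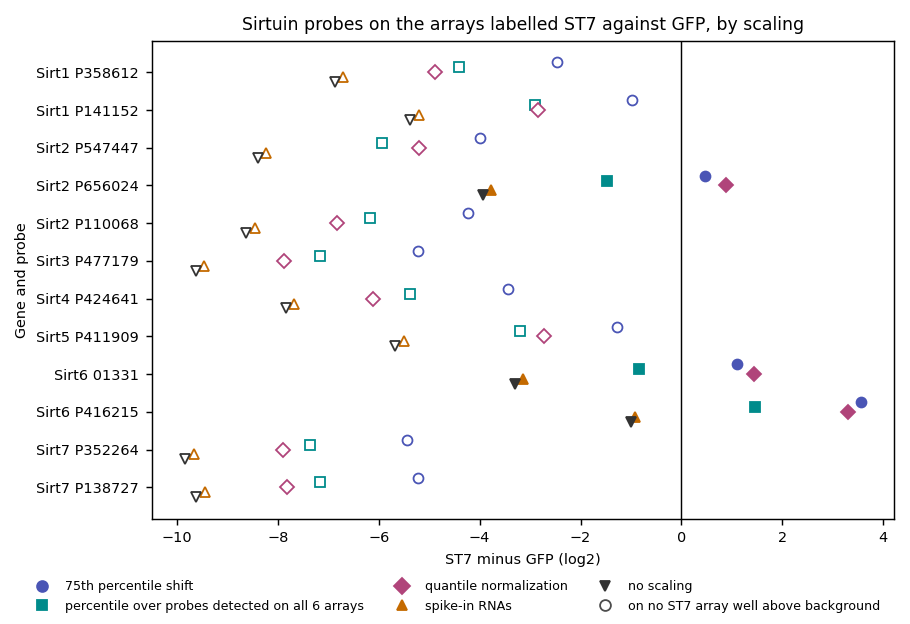
Log2 difference of ST7 from GFP for each sirtuin probe under 5 scalings (colours and shapes), with open symbols where no array labelled ST7 was well above background. Sirt7, Sirt3, Sirt4, Sirt5, Sirt1 and Sirt2 P547447 and P110068 stay below 0 under all 5, while Sirt6 and Sirt2 P656024 are above 0 after the shift (1.10, 3.55 and 0.46) and below it without scaling (-3.30, -1.01 and -3.94).

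Between the lines, ST7 and LT7, 10 of 12 probes passed (limma), 8 lower and 2 higher in ST7, where 90.7% of all probes passed, 19.7% lower and 71.0% higher. Of the 8 lower calls 6 gave a bound, since no array labelled ST7 was well above background. After the shift ST7 was at least 10.96-fold and 9.27-fold lower than LT7 for Sirt7 P352264 and P138727, at least 6.78-fold for Sirt3, at least 8.54-fold and 5.01-fold for Sirt2 P547447 and P110068 and at least 2.84-fold for Sirt4. The other lower calls were Sirt1 P358612 and Sirt5, whose LT7 level after the shift was under the floor of ST7, so no difference is given for them. Sirt1 P141152, under that floor as well, did not pass (limma adjusted p = 0.094), nor did Sirt2 P656024, which differed by 0.18 (limma adjusted p = 0.43). The Sirt6 probes were higher in ST7 by 1.25 and 3.79, but at -3.05 and -0.55 without scaling, and the latter rests on 1 array labelled ST7. By the rule on fold change 8 of 11 probes were called, against 90.6% of all probes. Of 33295 probes well above background on both arrays of any group, 12067 were called lower and 16218 higher in ST7 than in LT7 (limma). This comparison and that with GFP use the same arrays labelled ST7, so their values for a probe are not independent.

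Lists of genes that work with the sirtuins were set beside them, each gene by its brightest probe. In LT7 none of the genes of any list passed the adjusted p (limma), where 0.176% of all probes did. Counts at an unadjusted p under 0.05 stand beside the 27.2% of all probes. They also stand beside the 9.38% of probes well above background on both GFP arrays. Counts called in ST7 stand beside the 70.7% of all probes called higher and the 19.8% called lower. Of 33295 probes well above background on both arrays of any group, 15698 were called higher and 12161 lower. The NAD list holds enzymes that make or use the sirtuins' cosubstrate, with a median log2 difference of 0.06 in LT7. Of its 17 genes 3 had an unadjusted p under 0.05 there (limma), against 27.2% of all probes. The share was 9.38% among probes well above background on both GFP arrays, as 14 of the 17 were. The difference of these shares was not tested. Among the 3 were Cd38 and Bst1, well above background on no array of GFP or LT7, so their differences there are not measured. Nnmt, which methylates nicotinamide, read 4538 and 4155 in GFP and 2351 and 2026 in LT7, a difference of -0.89 (SE 0.20, limma adjusted p = 0.10), with no overlap of the signals. Nampt, the rate-limiting enzyme of NAD salvage, read 1007 and 953 in GFP and 1555 and 985 in LT7, a difference of 0.43 (SE 0.27, limma adjusted p = 0.39). Nmnat1 and Nmnat2, which form NAD from its mononucleotide, differed by -0.66 and 0.56 (limma adjusted p = 0.81 and 0.25). The spread used for Nmnat1 took in 2.85 and 46.7 on the arrays labelled ST7. In ST7, 6 of the 17 genes were called higher and 9 lower than GFP after the shift (70.7% and 19.8% of all probes), 13 were well above background on no array, and the median was -1.16 after the shift and -5.56 before it. Of those called higher, Cd38 and Bst1 were well above background on no array of GFP or ST7, so these are no measured rises. In signal Sarm1 and Parp2 were lower in ST7 than in GFP, Qprt spanned GFP, and Itgb1bp3 was higher. Nnmt and Nampt read 3.03 and 2.83 on ST7 replicate 1, and were at least 14.0-fold and 3.15-fold lower than GFP after the shift.
Of the 6 regulators of sirtuins, 5 were well above background on both arrays labelled ST7, where 1 of the 7 sirtuins was on its brightest probe, and the difference of these counts was not tested. Hic1, a repressor of Sirt1 transcription, read 895 and 787 in GFP, 1592 and 1324 in LT7, with 114 and 108 on those labelled ST7. Its difference in LT7 was 0.89 (SE 0.20, limma adjusted p = 0.10), and LT7 lay above GFP. The gene listed as 2610301G19Rik, Ccar2 in RefSeq, whose product inhibits Sirt1, read 612 and 569 in GFP, 1624 and 655 in LT7, with 993 and 1076 on those labelled ST7, a difference in LT7 of 0.90 (SE 0.42, limma adjusted p = 0.26). E2f1, a transcription factor, read 423 and 379 in GFP and 409 and 346 on those labelled ST7, and differed in LT7 by -0.17 (limma adjusted p = 0.70). In ST7 5 of the 6 were called higher than GFP and 0 lower after the shift, near the 70.7% of all probes called higher, with a median of 3.42, which was -0.98 before scaling.
Of the 12 partners and substrates of SIRT7, 7 were called higher and 5 lower in ST7 after the shift (70.7% and 19.8% of all probes), 7 were well above background on both of its arrays, and the median was 2.53 after the shift and -1.87 before it. Elk4, among those called higher, was well above background on neither array labelled ST7, so its call is no measured rise. In signal Gabpb1, Fbl, Npm1 and Smarca5, also called higher, were lower in ST7 than in GFP. Baz2a overlapped GFP, and Rrp9 was higher. Polr1e, a subunit of RNA polymerase I that SIRT7 deacetylates, read 325 and 303 in GFP, 454 and 265 in LT7, with 3.15 and 3.66 on those labelled ST7. Smad4, the shared mediator of TGF-beta signalling, read 4314 and 4367 in GFP, 6935 and 4355 in LT7, with 2.89 and 4.08 on those labelled ST7. Their LT7 differences were 0.24 and 0.44 (limma adjusted p = 0.68 and 0.44), and in ST7 neither was well above background. Gabpb1 and Smarca5 differed in LT7 by -0.56 and -0.50 (limma adjusted p = 0.24 and 0.21) and were well above background on both arrays labelled ST7, Gabpb1 at 26.1 and 28.0 and Smarca5 at 618 and 563.
Among the 14 substrates and targets of other sirtuins the LT7 median was 0.06, and 3 had an unadjusted p under 0.05 (limma). Of all probes 27.2% did, and 9.38% of those well above background on both GFP arrays. Acss1, among the 3, was well above background on no array of GFP or LT7, so its difference there is not measured. Ppargc1a, a coactivator deacetylated by Sirt1, read 535 and 461 in GFP and 267 and 219 in LT7, a difference of -0.94 (SE 0.20, limma adjusted p = 0.10). Sod2, the mitochondrial superoxide dismutase that Sirt3 deacetylates, read 36313 and 32667 in GFP, 18507 and 19106 in LT7, with 3.35 and 3.86 on those labelled ST7, with a difference of -0.77 in LT7 (SE 0.20, limma adjusted p = 0.10). Acss2, an acetyl-CoA synthetase, read 157 and 109 in GFP and 348 and 316 in LT7, a difference of 1.44 (SE 0.58, limma adjusted p = 0.19). That SE took in its signals of 2.87 and 10.1, at background, on the arrays labelled ST7. Hif1a, the hypoxia-inducible transcription factor, read 1368 and 1326 in GFP and 1815 and 1133 in LT7, a difference of 0.19 (SE 0.27, limma adjusted p = 0.74). The signals of GFP and LT7 overlapped for Hif1a and not for Ppargc1a, Sod2 and Acss2, as for 54.0% of all probes, and none passed. Of probes well above background on both GFP arrays 43.4% did not overlap. In ST7, 8 of the 14 were called higher and 5 lower after the shift (70.7% and 19.8% of all probes), with medians of 1.20 after it and -3.20 before it. Acss1 and Foxo3, among those called higher, were well above background on neither array labelled ST7, so their calls are no measured rises. In signal Ppargc1a, Idh2 and Tubb5, also called higher, were lower in ST7 than in GFP, and Trp53, Foxo1 and Cps1 were higher.
The 11 zinc-dependent histone deacetylases, which do not use NAD, had a median of 0.12 in LT7 and -1.71 in ST7 after the shift (-6.11 before it), with 2 called higher and 6 lower in ST7 (70.7% and 19.8% of all probes) and 3 well above background on both of its arrays. Hdac11 had the highest LT7 difference of those named by the rule, 0.70 (SE 0.23, limma adjusted p = 0.12), and Hdac4 and Hdac5 the lowest, -0.34 and -0.34. Of the 13 housekeeping genes 10 were well above background on both arrays labelled ST7, 7 were called higher and 5 lower than GFP after the shift (again 70.7% and 19.8% of all probes), and the median moved from 1.26 after it to -3.14 before it. Actb, cytoplasmic actin, read 2209 and 1427 in GFP, 3521 and 2283 in LT7, with 2420 and 2612 on those labelled ST7. In signal on those arrays, 10 of the 13 housekeeping genes lay below both of their GFP values, as all 12 sirtuin probes did, while Actb lay above its own.

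**Figure D4:**
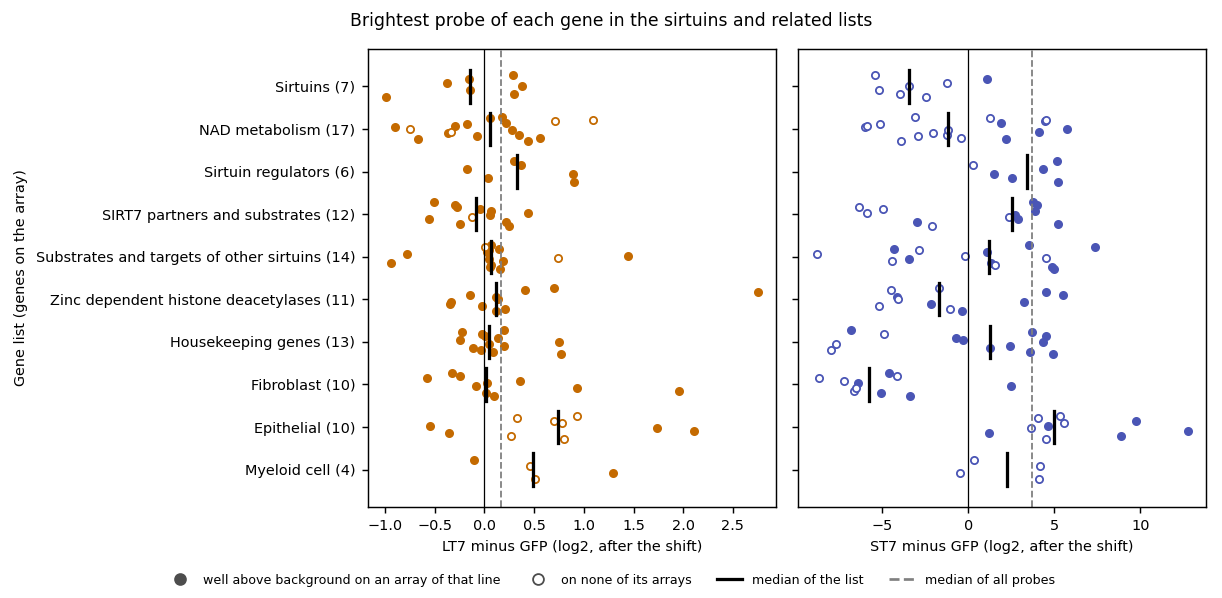
Log2 difference from GFP after the 75th percentile shift in LT7 (left) and ST7 (right) for the brightest probe of each gene in 10 lists, a point a gene; points are open where no array of that line was well above background, black bars are list medians and the dashed line is the median of all probes (0.17 and 3.72). The sirtuins lie between -0.99 and 0.38 in LT7, and in ST7 6 of the 7 lie below 0 with open points, with Sirt6 alone above it at 1.10.

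The genes whose pattern over the 6 arrays was nearest to that of Sirt1, Sirt2, Sirt3, Sirt4, Sirt5 and Sirt7 were found by the root mean square difference of log2 values after the shift, each centred on its own mean, among about 16650 probes of named genes well above background in GFP. These are descriptions over 6 arrays that share their groups. The values on the arrays labelled ST7 enter the distance also where they are at background and have no order, and the candidates were chosen for their level in GFP, so a shared drop to the floor counts as likeness. For Sirt7 the nearest were Txndc12, Ywhab and Rxrb, at 0.042, 0.047 and 0.053. Txndc12 read 2964 and 2311 in GFP, 3377 and 2784 in LT7, with 2.82 and 3.21 on the arrays labelled ST7. Within 0.5 of Sirt7 lay 1502 probes, of which 1416 were well above background on no array labelled ST7, where 59.8% of the candidates were. For Sirt3 the nearest were Myd88, Banp and Ngrn (0.056, 0.073 and 0.075), with 1693 probes within 0.5. For Sirt1 they were Crim1, Junb and Itgb1 (0.12, 0.14 and 0.14), with 530 probes within 0.5, and for Sirt2 Pctk3, Ets2 and Nudcd3 (0.10, 0.12 and 0.14), with 184. Sirt4 lay nearest to Ddx26b, Nktr and Adam17, and Sirt5 to Trmt1, D17Wsu92e and Sntb2.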

How the data were processed

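Total RNA of 6 samples labelled as NIH3T3 was read with one-colour Agilent arrays in 2 scans. The authors deposited scanner output of Agilent Feature Extraction 10.5.1.1, where the processed signal is an intensity after background subtraction, and a matrix of log2 values after a 75th percentile shift in GeneSpring, which the recomputed values met within 0.01 for all but 3 to 11 probes per array. The deposited files give no counts, and the number of arrays limits the precision.

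Outlier spots were dropped, the remaining spots of a probe were averaged as log2 intensity, and each array was shifted to a 75th percentile of 0. Groups were compared with limma 3.58.1 (R 4.3.3) on all 6 arrays, two-sided, with Benjamini-Hochberg adjustment over all probes and a threshold of 0.05. The fit was tested on simulated data. The study's own rule on fold change was run beside it. Where a group had no array well above background, the fold is a bound against the lowest signal well above background, or the probe's own where higher, on each array.

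The sirtuins and the gene lists were chosen with earlier results of these data known. From each list, at most 4 genes were named for LT7, those with the highest and lowest difference there among genes well above background in GFP and LT7. Other genes were named for their level on the arrays. Sirtuin probes were all shown. The genes nearest in pattern to Sirt6 are not reported here. Alternatives were the percentile limited to probes detected on every array, quantile normalization, 4 spike-in RNAs, no scaling, normexp background correction with an offset of 50, the deposited matrix, a filter on dim probes, outlier spots kept, only the groups compared, a replicate block and leaving out each array. Tables were made with Python 3.11.15 and pandas 2.3.3. Coordinates were not used, since the array annotation names the mm9 build and the RefSeq table is of GRCm38.p6.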

Additional observations from a re-analysis of the deposited data

How the results depend on the processing

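The count of sirtuin probes called in LT7 against GFP was 0 under every alternative run with limma, leaving out each array included. Of all probes it was 108, and between 0 and 697 over the alternatives, with 0 without GFP replicate 1, without GFP replicate 2 and with the replicate block (11129, 16332 and 16289 at an unadjusted p under 0.05), 3 with spike-in scaling, 5 with quantile normalization, 14 with only the 2 groups or without either ST7 array, 59 without scaling, 67 with the percentile of probes detected on every array (the other percentile), 264 with the filter on dim probes, 363 and 697 without LT7 replicates 1 and 2, and 438 with normexp. By the fold rule 1 sirtuin probe was called with spike-in scaling. In ST7 against GFP 9 to 11 sirtuin probes were called when single arrays were left out, and in ST7 against LT7 8 to 10. The latter count was 6 with spike-in scaling. Among all probes called in ST7 against GFP 43372 of 55534 were higher after the shift, 33861 of 50850 with the other percentile, 20203 of 35276 with quantile normalization, 264 of 14344 with spike-in scaling and 2624 of 28195 without scaling.

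Replicate numbers did not pair the arrays. The differences between replicates 1 and 2 correlated across probes at 0.078 for GFP and LT7, 0.035 for GFP and ST7 and -0.023 for LT7 and ST7. With the replicate number as a block 0 sirtuin probes were called in LT7, 10 in ST7 against LT7 and 10 in ST7 against GFP. In ST7 against GFP Sirt1 P141152 lost its call (adjusted p = 0.087, limma).

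Directions turned as follows, and the causes were not tested. In LT7 against GFP, spike-in scaling gave -1.77 for Sirt2 P110068, -1.87 for P547447, -1.89 for P656024, -1.79 for Sirt4 and -1.88 for both Sirt7 probes. Sirt1 P141152 ranged from -0.64 to 0.24 as single arrays were left out, above 0 without GFP replicate 2 (0.05) and without LT7 replicate 2 (0.24), and Sirt6 P416215 was at 0.082 with normexp. In ST7 against GFP, Sirt6 GT_Mm_44k_01331 was at -0.84 with the other percentile, -3.13 with spike-in scaling, -3.30 without scaling and -0.37 with normexp, and Sirt2 P656024 at -1.48, -3.77, -3.94 and -0.46 in that order. Sirt6 P416215 was at -0.92 with spike-in scaling and -1.01 without scaling. With normexp Sirt1 P141152 was at 0.77 and Sirt5 at 0.46. In ST7 against LT7, GT_Mm_44k_01331 was at -0.67, -0.81, -3.05 and -0.28 and P656024 at -1.75, -1.88, -4.12 and -0.72 in the same order, P416215 at -0.55 without scaling, and with normexp Sirt1 P141152 was at 0.82, Sirt1 P358612 at 0.26 and Sirt5 at 0.72. Calls lost elsewhere were those of Sirt6 P416215 with outlier spots kept or the deposited matrix (4.39 in both), of Sirt5 (-2.95), Sirt1 P358612 (-3.55) and Sirt6 P416215 (1.70) in ST7 against LT7 with spike-in scaling, and of Sirt5 there without LT7 replicate 2 (-0.66) or ST7 replicate 1 (-0.83). Calls gained were those of Sirt2 P656024 with quantile normalization (0.87 against GFP and 0.65 against LT7) and of Sirt1 P141152 against LT7 with the other percentile (-2.70), quantile normalization (-2.72), no scaling (-5.07) and without LT7 replicate 2 (-1.21). A signal under 13.9 or 15.5 on the arrays labelled ST7 has no order, which limits 9 of the 12 sirtuin probes there to bounds.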
